A study of Mus musculus with 9 samples.

Results

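Posterior Hox genes were followed in RNAseq of E14.5 mouse cranial tissue, with the MCAGF8 cranial vault as the tissue of interest. They were 10 genes, chosen by name because earlier results of these data had shown them in the MCAGF8 cranial vault: Hoxa9, Hoxa10, Hoxa11, its antisense gene Hoxa11os, Hoxa13, Hoxb9, Hoxb13, Hoxc9, Hoxc12 and Hoxc13. They were 10 of the 43539 gene identifiers with a value in every library, and the 9 coding genes among them were 9 of the 16 mouse Hox genes of groups 9 to 13 and 9 of the 39 coding Hox genes in all. The MCAGF8 cranial vault came from embryos that carried Msx2-Cre and an allele from which Cre releases Fgf8b under the CAG promoter at ROSA26. Msx2-Cre acts in the surface ectoderm, and it is also known for activity in the ectoderm of the limb bud. The control cranial vault and control cranial base came from embryos of the same cross without Cre, which the labels call wildtype, and the strain of all embryos is given as mixed. The paper states that Cre mice were bred to mice homozygous for the allele, so that each embryo inherits it. By that account the controls carried it unrecombined. The skin was peeled off before the vault tissue was taken, and the base was the cartilage under the brain of control embryos. Each of the 9 libraries, 3 per group, pooled RNA from 3 tissue samples, so an error here is the spread between pools and a single embryo cannot be seen. Values are FPKM, fragments counted relative to transcript length and to all mapped fragments of the library, as the authors derived them with Cufflinks. The number of reads behind a library is unknown, so no counting limit can be given for a value of 0.

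Hox genes encode homeodomain transcription factors, and they lie in 4 clusters in which the order of the genes along the chromosome follows the order of their expression along the body axis. Genes of the posterior groups are known for patterning the trunk, tail, limbs and genital tubercle, and the skull vault and face form from tissue that uses at most the anterior groups. In the HoxA cluster, Hoxa11 marks the middle segment of the developing limb and Hoxa13 the hand and foot, while Hoxa11os is transcribed from the opposite strand of Hoxa11. Hoxc13 is also known as a regulator of hair and nail keratins, and Hoxb13 for its part in tail, prostate and skin.

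The 10 genes came from 3 clusters. In the GRCm38 annotation, Hoxa9 (chr6:52223100-52231089), Hoxa10 (chr6:52231197-52240854), Hoxa11 (chr6:52242106-52245810) and Hoxa13 (chr6:52257694-52260880) lay on the minus strand within 37781 bp. Hoxa11os (chr6:52244393-52249799) lay on the plus strand and shared 1418 bp with Hoxa11. Hoxb13 (chr11:96194316-96197447) and Hoxb9 (chr11:96271457-96276595) were the posterior genes of HoxB. Hoxc13 (chr15:102921103-102928814), Hoxc12 (chr15:102936757-102938609) and Hoxc9 (chr15:102976439-102985099) belonged to HoxC, and the members in HoxB and HoxC were all on the plus strand. The libraries were stranded, but whether the counting used the strand is not stated, so reads of Hoxa11 and Hoxa11os may not be told apart.

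Promoter sequence is shown for Hoxa11, Hoxa11os and Hoxa13, the members with the highest levels. RefSeq windows on GRCm38.p6 were held for 5 of the 10 genes, all in HoxA, and the 250 bases before the RefSeq start of each gene are given 5′ to 3′ on the strand of the gene. The RefSeq start of Hoxa11os lies inside the gene annotated by GENCODE, so that its window is exonic in the gene whose position is given above. Capitals mark the letters CCGGAA or their reverse complement, the core that ETS factors bind, and these factors are known as effectors of FGF signaling. The window of Hoxa11 is chr6:52245811-52246060 on the minus strand, that of Hoxa11os is chr6:52244993-52245242 on the plus strand, and that of Hoxa13 is chr6:52260881-52261130 on the minus strand.
Hoxa11: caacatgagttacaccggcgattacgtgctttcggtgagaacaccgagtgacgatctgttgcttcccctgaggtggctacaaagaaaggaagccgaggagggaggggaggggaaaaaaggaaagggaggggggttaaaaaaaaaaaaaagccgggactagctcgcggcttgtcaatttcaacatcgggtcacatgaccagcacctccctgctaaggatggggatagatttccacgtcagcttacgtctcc
Hoxa11os: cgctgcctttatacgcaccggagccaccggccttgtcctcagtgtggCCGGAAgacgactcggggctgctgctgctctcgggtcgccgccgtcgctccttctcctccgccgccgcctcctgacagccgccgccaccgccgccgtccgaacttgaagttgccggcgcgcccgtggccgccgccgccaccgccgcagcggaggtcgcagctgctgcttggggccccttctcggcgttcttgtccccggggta
Hoxa13: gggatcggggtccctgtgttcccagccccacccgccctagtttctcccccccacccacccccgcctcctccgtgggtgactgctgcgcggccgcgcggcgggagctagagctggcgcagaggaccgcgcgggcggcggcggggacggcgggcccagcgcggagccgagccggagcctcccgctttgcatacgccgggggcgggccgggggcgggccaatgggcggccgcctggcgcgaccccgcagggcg

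Of these windows, that of Hoxa11os held the ETS letters once, starting 203 bases before its RefSeq start, and those of Hoxa11 and Hoxa13 did not hold them. The letters were found on either strand in 12.03% of 32851 windows of the same length. The letters CAATAAA, which posterior HOX proteins are known to bind, were in 4.20% of all windows and in none of the windows of Hoxa11, Hoxa11os and Hoxa13. The windows of Hoxa11os and Hoxa13 each held 35 CG dinucleotides, more than 97.0% of all windows, and that of Hoxa11 held 13. Of the Hoxa11os window, 232 bases were coding sequence of Hoxa11 read from the other strand, and 98 bases of the Hoxa11 window were in exons of Hoxa11os. The windows show how closely this pair of genes interleaves, and no motif in them is taken as a bound site.

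The genes of the HoxA cluster were the highest. Hoxa13 stood at 1.93, 10.9 and 4.73 FPKM in MCAGF8 vault replicates 1, 2 and 3, a mean of 5.86 ± 4.59 (SD, n = 3). In the control vault it was listed at 0, 0.0256 and 0, and in the control base at 0.0739, 0.0406 and 0.0415. Every MCAGF8 vault library was above every control library, and replicate 2 was the highest of them. Among the controls, Hoxa13 was the only member whose base and vault libraries did not overlap, at levels under 0.1 FPKM in all 6.

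Hoxa11 was at 2.01, 6.07 and 2.72 FPKM in the MCAGF8 vault, a mean of 3.60 ± 2.17 (SD, n = 3). It was listed at 0 in all 3 control vault libraries and in control base replicates 2 and 3, with 0.0778 FPKM in control base replicate 1. Hoxa11os reached 2.57, 11.7 and 5.33 FPKM, a mean of 6.54 ± 4.69 (SD, n = 3), and was listed at 0 in all 6 control libraries. Both genes of the overlapping pair thus separated the MCAGF8 vault from the controls without overlap. Per length, Hoxa11os was 1.28, 1.93 and 1.96 times Hoxa11 in MCAGF8 vault replicates 1, 2 and 3.

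The genes further toward the anterior side had lower levels. Hoxa10, which patterns the upper limb segment and the uterus, stood at 0.372, 1.62 and 0.630 FPKM in the MCAGF8 vault and was listed at 0 in all 6 control libraries. Hoxa9, known for trunk, limb and blood cell development, was at 0.323, 0.492 and 0.179 FPKM, against 0.0158 in control vault replicate 3 and 0 in the other 5 control libraries. Neither gene overlapped the controls. In each MCAGF8 vault library the order was Hoxa9, Hoxa10, Hoxa11 from low to high, with Hoxa10 at 0.185, 0.267 and 0.232 times Hoxa11. Hoxa13 was at 0.961, 1.80 and 1.74 times Hoxa11, so its place relative to Hoxa11 differed between libraries.

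The HoxC and HoxB genes were lower than Hoxa13, Hoxa11os and Hoxa11 in every MCAGF8 vault library. Hoxc13 was at 0.947, 0.797 and 0.670 FPKM in the MCAGF8 vault, at 0, 0.0510 and 0 in the control vault, and at 0, 0.0396 and 0.0214 in the control base. Its mean of 0.805 ± 0.138 (SD, n = 3) was near that of Hoxa10, and its 3 libraries lay closer together than those of Hoxa10. Hoxb9, a gene of trunk and thoracic patterning, was at 0.567, 0.491 and 0.451 FPKM in the MCAGF8 vault. It was the only member above 0 in all control vault libraries, at 0.0847, 0.139 and 0.0233 FPKM, so that the ratio of its means was 6.10. In the control base Hoxb9 was at 0.195, 0 and 0 FPKM. Neither Hoxc13 nor Hoxb9 overlapped the controls.

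The remaining genes were near the lower end of the scale. Hoxc9 stood at 0.0469, 0.155 and 0.0804 FPKM in the MCAGF8 vault, against 0.0265 in control vault replicate 2 and 0 in the other 5 control libraries. Hoxc12 was at 0.184, 0.339 and 0 FPKM, and Hoxb13 at 0.0508, 0.0281 and 0, with both listed at 0 in all 6 control libraries. MCAGF8 vault replicate 3 thus tied with the controls at 0 for Hoxc12 and Hoxb13. The annotated Hoxc5 gene spans Hoxc9, so reads of that region may have been assigned to either.

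**Figure D1:**
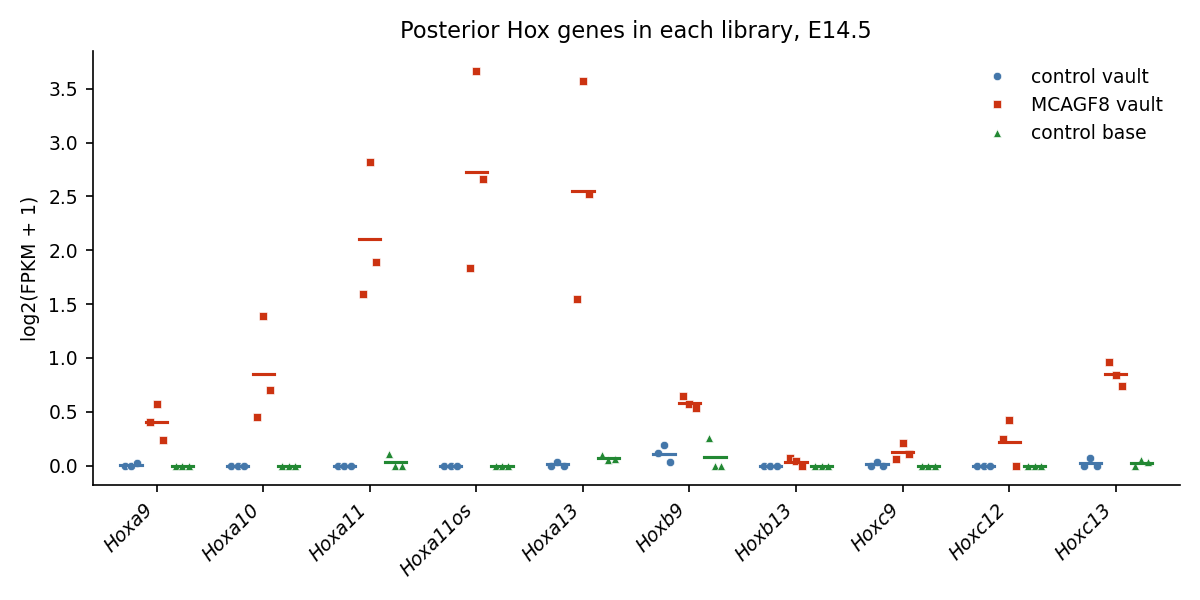
Levels of the 10 posterior Hox genes on the scale log2(FPKM + 1) in each library, with points for libraries and a line at the mean of the 3 values of a group. In Hoxa9 to Hoxa13, Hoxb9, Hoxc9 and Hoxc13 all 3 MCAGF8 vault points lie above the control points, while Hoxb13 and Hoxc12 each have a MCAGF8 vault library at 0.

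By mean level in the MCAGF8 vault the order was Hoxa11os, Hoxa13, Hoxa11, Hoxa10, Hoxc13, Hoxb9, Hoxa9, Hoxc12, Hoxc9 and Hoxb13. The means of Hoxa11os, Hoxa13 and Hoxa11 differed by less than the SD of Hoxa11os, and those of Hoxa10 and Hoxc13 by less than the SD of either. In all, 8 of the 10 genes were higher in every MCAGF8 vault library than in every control vault library, and the same number held against the control base. Of the 27685 genes above 0 in a library, 7.86% separated in that direction from the control vault and 7.10% from the control base. The members were chosen for this difference, so their count describes them and nothing is read from it.

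Of the 10 genes, 3 passed the filter of a mean of at least 0.5 FPKM over the 9 libraries, and they passed only through the MCAGF8 vault. On the scale log2(FPKM + 1), the difference between the MCAGF8 and the control vault was 2.10 ± 0.30 (SE) for Hoxa11, 2.72 ± 0.39 for Hoxa11os and 2.54 ± 0.42 for Hoxa13. Against the control base it was 2.07 ± 0.30, 2.72 ± 0.39 and 2.47 ± 0.42. The fit takes the spread as shared by all groups, and the controls at or near 0 add almost none. These SEs therefore understate the spread among the MCAGF8 vault libraries. All 3 passed the threshold for a called gene, an unadjusted p under 0.05 and an adjusted p under 0.1 in limma, in both comparisons. The threshold called 0.604% of 18714 genes tested in the first comparison and 8.39% in the second. Since the contrast chose the genes, no p is given and these calls describe them without testing them. The control base and the control vault did not separate at the threshold for any of the 3, beside 3.06% of all genes tested. With these genes at or near 0 in both control groups, their levels left no room for a call. The call against the control vault was lost for all 3 genes without control vault replicate 1 and without control vault replicate 3. That of Hoxa13 was also lost without control vault replicate 2, when MCAGF8 vault replicate 2, MCAGF8 vault replicate 3 or control base replicate 3 was absent, and that of Hoxa11os when MCAGF8 vault replicate 3 was absent.

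The members did not vary together across the MCAGF8 vault libraries. Replicate 2 was the highest for 7 of the 10 genes, all 5 of HoxA with Hoxc9 and Hoxc12, and replicate 1 for Hoxb9, Hoxb13 and Hoxc13. Relative to its own mean over the 3 libraries, Hoxa13 was at 0.330, 1.86 and 0.807, and Hoxa11os at 0.393, 1.79 and 0.815. Hoxb9 at 1.13, 0.976 and 0.897 and Hoxc13 at 1.18, 0.991 and 0.833 spread much less. Summed over the 5 HoxA members, the level was 7.20, 30.8 and 13.6 FPKM in replicates 1, 2 and 3, against at most 0.0256 FPKM in a control vault library and 0.152 in a control base library. The sum of the 3 HoxC members ran from 0.751 to 1.29 FPKM.

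**Figure D2:**
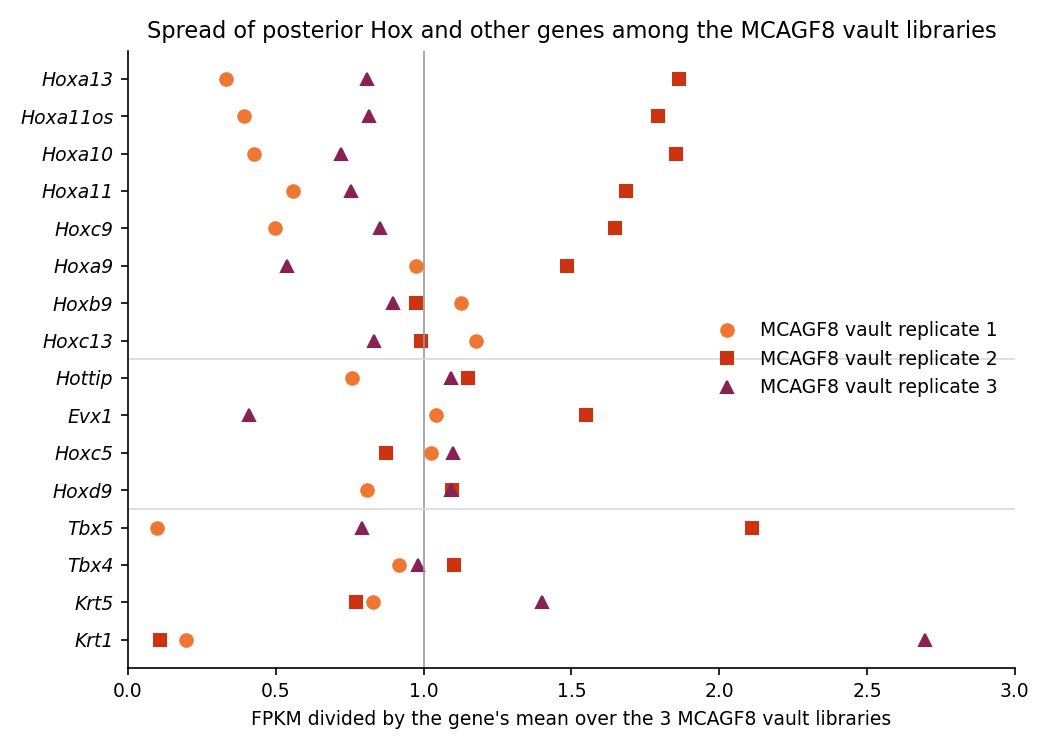
Each gene's FPKM in the 3 MCAGF8 vault libraries divided by its mean over them, for 8 members (top), their neighbours and other Hox genes (middle) and genes of limb and epidermis (bottom). Replicate 2 is highest for the HoxA members, with Hoxa13 at 1.86, while Krt5 and Krt1 are highest in replicate 3.

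The rest of groups 9 to 13 was mostly at or near 0. Of the 7 coding genes that are no member, Hoxc10, Hoxc11, Hoxd11 and Hoxd12 were listed at 0 in all 9 libraries. Hoxd13, which acts with Hoxa13 in the hand and foot, did not exceed 0.0247 FPKM in any library. Hoxd10 was at 0.0946, 0.105 and 0.108 FPKM in the MCAGF8 vault, at 0 in the control vault and at 0.0713, 0 and 0 in the control base. Hoxd9 was at 1.16, 1.57 and 1.57 FPKM in the MCAGF8 vault, at 0.0604, 0.626 and 0.124 in the control vault and at 0.535, 0.254 and 0.524 in the control base. It was the only one of the 7 tested, and its difference from the control vault of 0.96 ± 0.23 (SE) on the log2(FPKM + 1) scale did not pass (adjusted p = 0.200). Like 8 of the members, Hoxd9 and Hoxd10 were higher in every MCAGF8 vault library than in every control library. The posterior end of HoxA was thus listed well above 0 in libraries in which Hoxd11, Hoxd12 and Hoxd13 were at or near 0.

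Next to Hoxa13, the pattern extended past the coding genes. Hottip, a noncoding gene 1894 bp beyond Hoxa13 that is known for keeping posterior HoxA genes active, was at 0.264, 0.401 and 0.380 FPKM in the MCAGF8 vault and listed at 0 in all 6 controls. Evx1, a homeobox gene at the end of the cluster, 45894 bp beyond Hottip, was at 0.666, 0.989 and 0.261 FPKM, against 0, 0 and 0.0578 in the control vault and 0, 0 and 0.541 in the control base. Evx1 therefore overlapped the base but not the control vault, and Evx2, its counterpart beside HoxD, was listed at 0 in the MCAGF8 vault. The genes on the other side of Hoxa9 did not share the pattern, with Hoxa7 at 0, 0.0910 and 0.0638 FPKM and Hoxa6 at 0.0760, 0 and 0 in the MCAGF8 vault. Hotair, the noncoding gene between Hoxc11 and Hoxc12, and the 6 microRNA genes of the clusters on the noncoding list were at 0 in all 9 libraries. The libraries were made for mRNA, so the 0 of the microRNA genes is not read as absence. Of the 15 noncoding genes listed, 6 were tested and none was called against the control vault, with 1 at an unadjusted p under 0.05 in limma, beside 1186 of all 18714 genes tested. The highest of them by mean over all 9 libraries, Hotairm1 and Hoxaas3 at the anterior side of HoxA, were at 7.94 ± 3.77 and 0.702 ± 0.663 FPKM in the MCAGF8 and 2.14 ± 3.24 and 1.08 ± 1.76 in the control vault (SD, n = 3 each). Of 10 genes that flank the clusters, 7 were tested and 0 were called, with 0 at an unadjusted p under 0.05, and the highest of them by mean over all 9 libraries were Mtx2 at 70.8 ± 0.715 FPKM in the MCAGF8 and 80.6 ± 10.5 in the control vault and Hibadh at 58.5 ± 11.5 and 57.8 ± 8.29 (SD, n = 3 each).

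**Figure D3:**
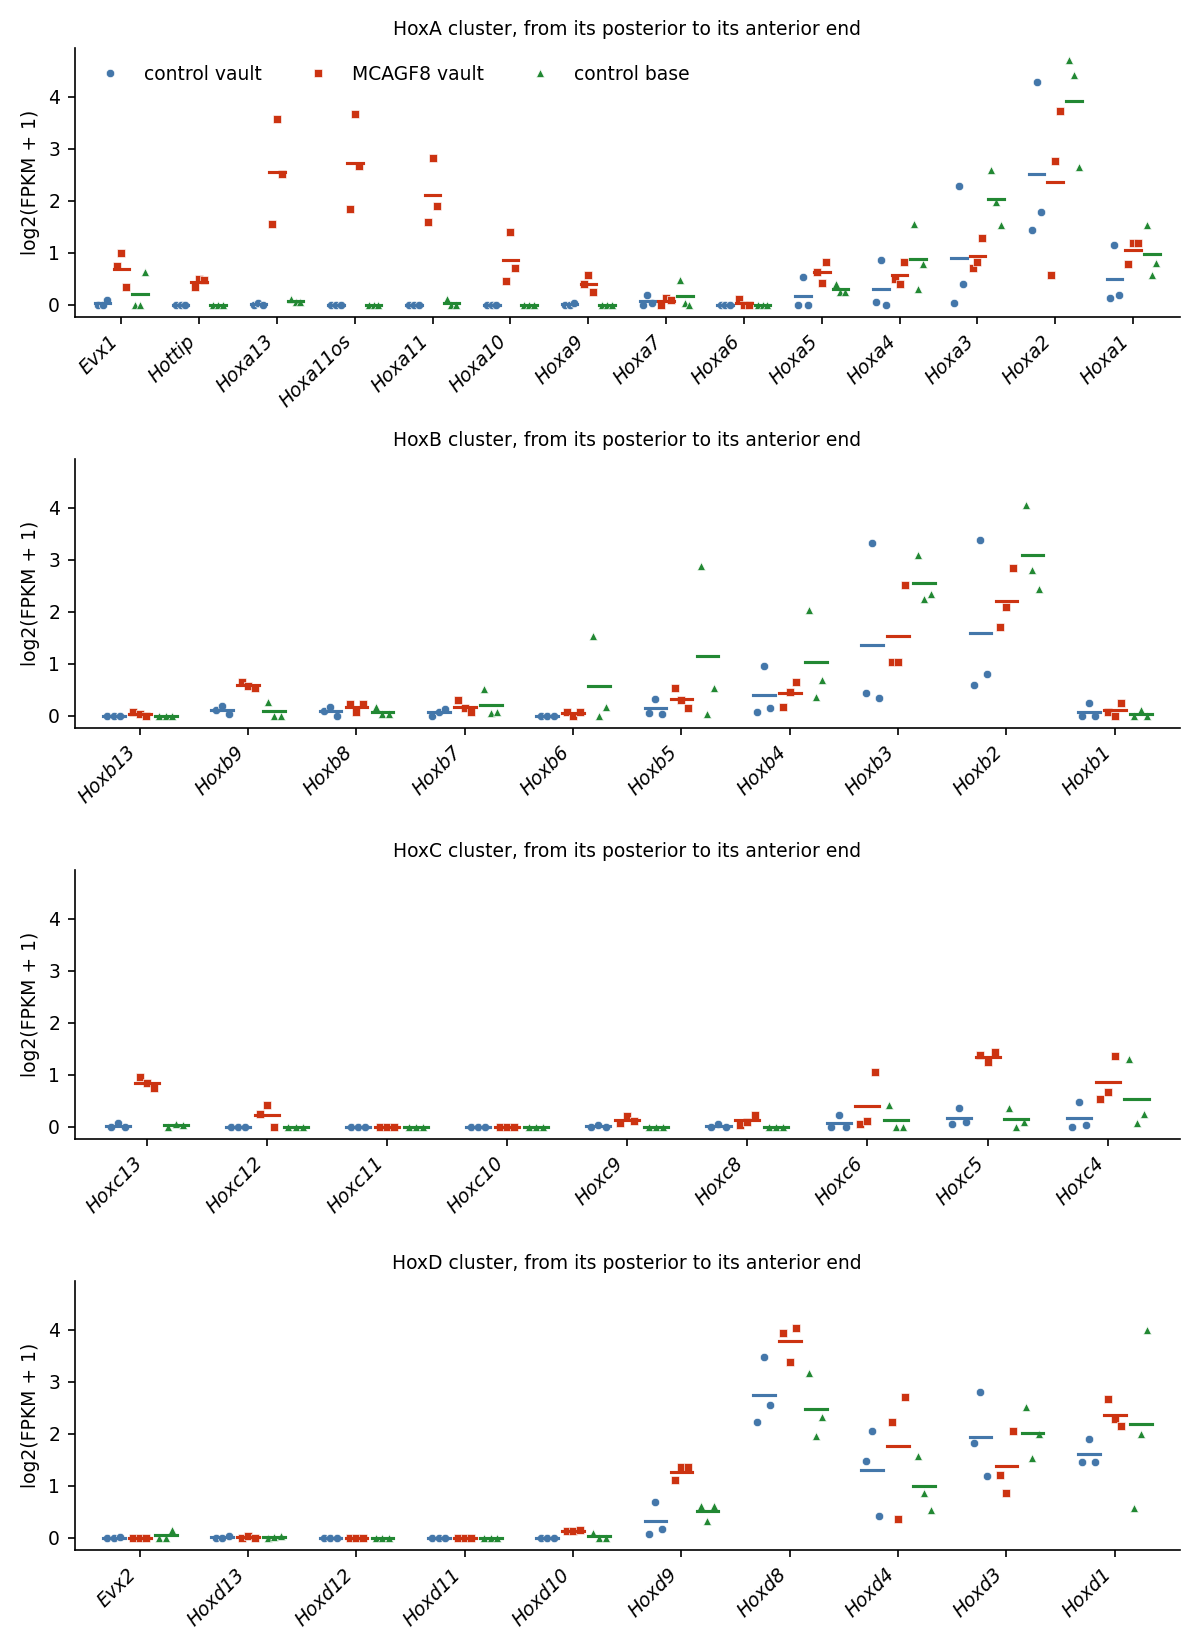
Coding genes of the 4 Hox clusters in order from the posterior to the anterior end, with Evx1, Hottip, Hoxa11os and Evx2 added at their places, on the scale log2(FPKM + 1). The MCAGF8 vault stands apart from both controls at the posterior end of HoxA and at Hoxb9, Hoxc13, Hoxc5 and Hoxd9, among others. Most anterior genes overlap between the 3 groups, and the posterior end of HoxD is near 0.

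The anterior Hox genes mostly overlapped between the MCAGF8 and the control vault. Of 23 coding genes of groups 1 to 8, 14 were tested, and 1 was called higher in the MCAGF8 than in the control vault and none lower, with a median log2 difference of 0.36 beside -0.01 over all genes. Called or not, 12 of the 14 were higher and 2 lower. Of the 23, Hoxc4, Hoxc5 and Hoxd1 were higher in every MCAGF8 than in every control vault library, beside 7.86% of genes above 0 in a library. The called gene was Hoxc5, at 1.60, 1.36 and 1.72 FPKM against 0.0429, 0.281 and 0.0708 in the control vault, a difference of 1.18 ± 0.20 (SE; limma adjusted p = 0.072). Over 12 other settings that adjusted p ran from 0.0291 to 0.251, and 6 of them called it. Its annotated gene spans Hoxc6, Hoxc8 and Hoxc9 and overlaps Hoxc10, which limits what its reads can be assigned to. The highest anterior genes were Hoxa2, known for the second pharyngeal arch, with means of 6.17 ± 5.91 and 7.57 ± 9.52 FPKM (SD, n = 3 each) in the MCAGF8 and control vault, and Hoxd8 with 13.1 ± 3.19 and 6.26 ± 3.47. In 20 of the 23 anterior genes, control vault replicate 2 was the highest control vault library, and their sum was 67.8 FPKM there against 12.7 and 12.6 in replicates 1 and 3. That library was also the highest of the control vault for the skeletal muscle list, at 5188 FPKM against 812 and 1413. The sum of the members was also highest in that library, at 0.243 FPKM against 0.0847 and 0.0391.

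As a share of the summed FPKM of the 39 coding Hox genes, groups 9 to 13 took 18.4%, 42.8% and 15.5% in the MCAGF8 vault libraries. They took 1.13%, 1.26% and 1.45% in the control vault and 1.09%, 0.818% and 1.45% in the control base. The controls lay close together although their total Hox level differed from 12.7 to 87.7 FPKM. Hoxa9, Hoxa10, Hoxa11 and Hoxa13 alone made up 11.1%, 36.2% and 11.5% in the MCAGF8 vault and at most 0.173% in any control library.

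Genes known to act with or on Hox genes were taken from lists. The Cdx genes and other ParaHox genes, relatives of Hox genes of which Cdx proteins activate posterior Hox genes in the trunk, were not tested, and none of the 6 exceeded 0.130 FPKM in an MCAGF8 vault library. Of the 9 TALE genes, whose products bind DNA together with HOX proteins, none was called against the control vault and 2 had an unadjusted p under 0.05 in limma. Both were higher in the MCAGF8 vault. Meis1 was at 22.0, 26.7 and 36.0 FPKM against 9.37, 18.4 and 8.31 (log2 difference 1.22 ± 0.31 SE, adjusted p = 0.215). Pbx3 was at 41.9, 41.5 and 45.9 FPKM in the control vault (0.68 ± 0.19 SE, adjusted p = 0.291). Against the control base Pbx3 was called higher, with 66.0, 83.3 and 61.1 FPKM in the MCAGF8 vault and 31.9, 37.9 and 45.3 in the base (log2 difference 0.85 ± 0.19 SE, adjusted p = 0.032). The highest TALE gene, Pbx2, was at 88.7 ± 16.9 FPKM in the MCAGF8 and 87.1 ± 3.80 in the control vault (SD, n = 3 each). All 19 Polycomb and Trithorax genes, which keep Hox genes silent or active through chromatin, were tested and none was called in either comparison of the MCAGF8 vault, with 1 at an unadjusted p under 0.05 in limma in each. By mean over all 9 libraries their highest genes were Rnf2 at 95.9 ± 14.6 and 93.9 ± 11.7 FPKM and Phc2 at 78.1 ± 24.5 and 76.5 ± 10.8 (SD, n = 3 each) in the MCAGF8 and control vault.

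Several members are best known from the limb, so genes of limb development were looked at beside them. Of 12 limb bud patterning genes tested, none was called against the control vault and 2 had an unadjusted p under 0.05 in limma, with a median difference of 0.10. Tbx4, a gene of the hindlimb, was at 3.44, 4.14 and 3.68 FPKM in the MCAGF8 vault, at 1.63, 1.46 and 1.92 in the control vault and at 0.897, 1.31 and 1.44 in the base. The groups did not overlap, and Tbx4 was called against the base (log2 difference 1.11 ± 0.21 SE, adjusted p = 0.017) but not against the control vault (0.83 ± 0.21 SE, adjusted p = 0.211). Tbx5, a gene of the forelimb, was at 0.0411, 0.873 and 0.327 FPKM in the MCAGF8 vault and did not exceed 0.0773 in a control library. Its order of the 3 MCAGF8 vault libraries was that of Hoxa13, with replicate 1 inside the range of the controls. Shh, which organizes the posterior limb bud, stood at 0.103, 0.0668 and 0.258 FPKM in the MCAGF8 vault, and the hindlimb gene Pitx1 at 0.116, 0.253 and 0.286. Against the base 2 limb genes were called higher, Tbx4 and Lmx1b, and 6 lower, Pitx1, Hand2, Shh, Grem1, Tbx2 and Tbx3. The highest limb genes by mean over all 9 libraries were Lmx1b at 34.3 ± 3.91 and 24.4 ± 1.52 FPKM and Gli3 at 17.8 ± 0.809 and 13.8 ± 1.09 (SD, n = 3 each) in the MCAGF8 and control vault. Of 8 tested genes of the apical ectodermal ridge, the FGF-producing edge of the limb bud, none was called against the control vault and 5 had an unadjusted p under 0.05 in limma, with a median of -0.54. By mean over all 9 libraries Dlx5 and Dlx6 were the highest, at 24.3 ± 4.71 and 5.20 ± 1.69 FPKM against 53.8 ± 17.0 and 28.2 ± 15.2 (SD, n = 3 each). Wnt7a on that list went the other way, at 2.10, 2.60 and 1.16 FPKM against 0.0197, 0.208 and 0.0643 in the control vault (log2 difference 1.40 ± 0.32 SE, adjusted p = 0.175). Fgf8, the gene that the allele expresses, is on that list too and was at 19.5, 9.43 and 13.03 FPKM in the MCAGF8 vault and 13.5, 8.25 and 3.01 in the control vault, so the groups overlapped and its level does not check the labels.

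Some marker lists of other cell types were higher and some lower in the MCAGF8 than in the control vault. The part of these cell types in the levels of the Hox genes was not tested. In bulk tissue, more cells of a type and more RNA per cell cannot be told apart. Of 21 epidermis genes, all tested, 3 were called higher in the MCAGF8 than in the control vault and none lower. An unadjusted p under 0.05 in limma was reached by 17 of them, beside 1186 of all 18714 genes tested. The epidermis genes had a median difference of 1.93, and their sum was 557, 542 and 1210 FPKM against 100.1, 150.3 and 61.1. The called genes were Krt5, a keratin of the basal layer, at 149, 139 and 252 FPKM against 5.27, 29.2 and 1.63 (log2 difference 4.46 ± 0.86 SE, adjusted p = 0.093), the desmosome gene Pkp1 (2.62 ± 0.52 SE, adjusted p = 0.098) and Grhl3, a regulator of the skin barrier (1.93 ± 0.37 SE, adjusted p = 0.093). Krt15, the highest by mean over all 9 libraries, was at 83.0 ± 25.8 against 5.62 ± 7.21 FPKM (SD, n = 3 each). Over 14 other settings, 4 called Krt5, 3 called Pkp1 and 4 called Grhl3 in that comparison. The epidermis sum was highest in replicate 3, where no member was highest, and Krt1, a keratin of the upper layers, was at 9.98, 5.39 and 136 FPKM. In the control base the epidermis sum was 726, 181 and 1017 FPKM, with the members at or near 0. Mean Epcam was 41.7 FPKM in the base and 6.65 in the MCAGF8 vault, and mean Krt1 was 2.07 and 50.5. The base is thus no matched comparison, and nothing is read from these levels about the members. Of the 5 hair placode genes tested none was called against the control vault, with 2 at an unadjusted p under 0.05 in limma, and Sostdc1 and Bmp2 were their highest by mean over all 9 libraries, at 22.9 ± 2.48 and 8.27 ± 0.383 FPKM against 6.86 ± 2.17 and 11.7 ± 1.89 (SD, n = 3 each).

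Melanocyte genes were higher in all MCAGF8 vault libraries as a sum, with 22.9, 19.9 and 24.0 FPKM against 2.86 to 4.75 in the control vault and 1.88, 18.8 and 4.41 in the base. Of the 5 tested, 4 had an unadjusted p under 0.05 in limma against the control vault. Mlana was called, at 2.41, 2.67 and 1.52 FPKM and listed at 0 in all control vault libraries (adjusted p = 0.050). The highest in the MCAGF8 vault were Dct at 8.57 ± 1.19 and Pmel at 6.50 ± 0.895 FPKM (SD, n = 3 each) against 0.465 ± 0.617 and 1.43 ± 0.309. Control base replicate 2, with a melanocyte sum near that of the MCAGF8 vault, had a member sum of 0.0802 FPKM. It is a single library of another tissue, so nothing is read from this. Skeletal muscle genes went the other way, with 5 of 11 called lower (Acta1, Mylpf, Ckm, Tnnc2 and Myh3) and 10 at an unadjusted p under 0.05 in limma. Their sums were 49.7, 60.5 and 194 FPKM against 812 to 5188 in the control vault. None of the 5 muscle calls was kept in more than 5 of 14 other settings. Of 7 osteoblast genes 5 had an unadjusted p under 0.05 in limma and 3 were called lower. Ibsp fell by 5.81 on the log2(FPKM + 1) scale (adjusted p = 0.015), with Spp1 and Sp7 as the other called genes. Of 14 other settings, 13 called Ibsp, 13 called Spp1, 5 called Sp7 and 8 called Mlana. Col1a1, the highest of them, was at 2430 ± 293 FPKM against 3417 ± 663 (SD, n = 3 each). None of 6 cartilage, 8 neural and 6 somite genes tested was called against the control vault, with 1, 1 and 3 at an unadjusted p under 0.05 in limma. Of the somite genes, 2 were higher and 4 lower in the MCAGF8 than in the control vault. Uncx, a gene of the somites of the trunk, was at 0.0539, 0.0298 and 0 FPKM in the MCAGF8 vault. In the control vault it was at 6.25, 0 and 4.01, so the groups overlapped (limma adjusted p = 0.619). By mean over all 9 libraries, the base included, the highest genes of the cartilage, neural and somite lists were Col2a1, Cnmd, Stmn2, Isl1, Meox2 and Pax1, with means of 948, 602, 51.0, 0.766, 41.2 and 23.9 FPKM in the MCAGF8 and 419, 447, 29.4, 1.00, 53.0 and 12.3 FPKM in the control vault.

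Against the control base the members stood beside other differences of tissue. In the MCAGF8 vault 10 of 11 muscle genes and 6 of 8 neural genes were called lower, and with them Ibsp, Spp1, Epcam, Fgf9, Meox1 and Nkx3-2. Mlana, En1, Col1a1 and Hoxc5 were called higher. The base had the members at or near 0, with a sum of 0.347, 0.0802 and 0.0628 FPKM in its 3 libraries. Between the base and the control vault, 1 noncoding Hox gene, Halr1, and 1 TALE gene, Meis1, were called higher in the base and no coding Hox gene was called, with Hoxd9 and all 14 anterior genes tested above an unadjusted p of 0.05 in limma. Among genes of the other lists, Hand2, Shh, Grem1, Tbx2, Tbx3, Krt17, Epcam, Sostdc1, Stmn2, Snap25, Isl1 and Nkx3-2 were called higher in the base and Lmx1b, En1, Runx2 and Col1a1 lower.

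**Figure D4:**
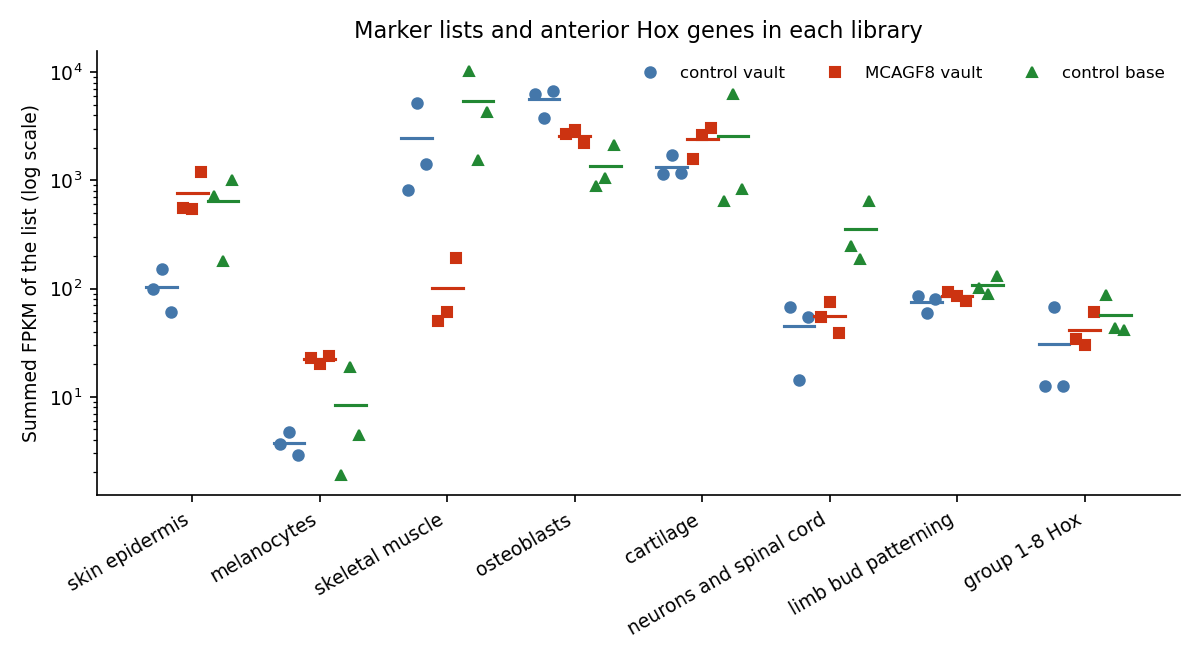
Summed FPKM of lists of marker genes and of the group 1 to 8 Hox genes in each library on a log axis, with lines at the group means of FPKM. Epidermis sums of the MCAGF8 vault lie above those of the control vault and overlap the range of the base, melanocyte sums lie above both controls, and muscle sums lie below both controls.

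Outside the Hox clusters, the genes whose pattern was most like that of the members were looked up among 17040 genes with a mean of at least 1 FPKM. Likeness was Pearson's r over the 9 libraries with the mean standardized log2(FPKM + 1) of Hoxa11, Hoxa11os and Hoxa13, and it is a description, since the 9 points share 3 groups. The 5 genes at the top were Cnksr3, Irx6, Tmem132c, Gm9089 and Acsf2, with r from 0.943 to 0.965. Irx6, an Iroquois homeobox gene, was at 1.82, 4.12 and 1.66 FPKM in the MCAGF8 vault and between 0.0909 and 0.188 in the control vault. Tmem132c was at 79.5, 98.5 and 64.3 FPKM against 12.6, 18.1 and 13.9. In all 5 genes replicate 2 was the highest MCAGF8 vault library. They were chosen for likeness to Hoxa11, Hoxa11os and Hoxa13, which are highest there, so nothing is read from this. All but Irx6 were well above 0 in the controls, with means in the control vault of 9.84 FPKM for Cnksr3, 0.979 for Gm9089 and 17.9 for Acsf2.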

How the data were processed

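RNAseq of 9 libraries (3 groups of 3) was analysed from the deposited FPKM. Per the labels and methods, the authors prepared stranded mRNA libraries, read them single-end, mapped with gSNAP and derived FPKM with Cufflinks; no source used here gives the build, annotation, versions or strand setting. Of 43611 rows, 63 repeated an identifier and were summed, and 9 genes with the placeholder 999999999 were left out. Differences were fitted on log2(FPKM + 1) for 18714 genes with a mean of at least 0.5 FPKM, with limma 3.58.1 (trend) in R 4.3.3, 1 mean per group over all libraries, two-sided, and adjusted by Benjamini-Hochberg over all of them. The fit was tested on simulated data. By the methods, the base cartilage was taken from the control embryos after their vault tissue, so the 2 control tissues can share embryos. How their pools match is not stated, and the fit treated the groups as independent. The p-values rest on the spread between these pools, taken as shared by the 3 groups.

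The members and the 17 lists were chosen with earlier results of these data known. Named are the members, the other group 9 to 13 Hox genes, in each list the called genes and the 2 with the highest mean, and the 5 most like genes; further genes were named after their values were seen. Some genes that this rule names are not reported here. Positions were taken by Ensembl identifier from GENCODE M21 (GRCm38) and promoter windows from RefSeq. Python 3.11.15 with pandas 2.3.3, numpy 2.4.6 and matplotlib 3.10.9 made tables and plots. Alternatives were a pseudocount of 0.1, no filter, libraries rescaled to a sum of 1000000, the replicate number as a block, no moderation, and each library left out in turn. Depth is unknown, so no counting intervals are given. Sums of FPKM ran from 793249 to 1315981 per library.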

Additional observations from a re-analysis of the deposited data

How the results depend on the processing

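The count of members higher in every MCAGF8 than in every control vault library, 8 as reported, was 8 to 10 when a vault library was left out, which cannot lower it, and 8 with libraries rescaled to a sum of 1000000. That rescaling moved the median log2 difference of all genes from -0.01 to 0.13 against the control vault and from -0.07 to 0.11 against the base, and the share of calls that were higher in the MCAGF8 vault against the base from 35.5% to 48.5%. Against the control vault 113 genes were called, and 191 with a pseudocount of 0.1, 66 with no filter and 0 without moderation, where 1223 had an unadjusted p under 0.05. Without moderation the count was 869 against the base and 257 between the base and the control vault, where 1571 and 573 had been called. Leaving out 1 library gave 11 to 273 genes against the control vault, 587 to 4561 against the base and 130 to 1335 between the controls, the highest each time without control base replicate 2. Between same-numbered libraries of different groups, the deviations from the group mean correlated from -0.549 to 0.370. Libraries with different numbers were not compared, so this cannot decide whether the numbers pair the libraries. With the replicate number as a block 19, 918 and 234 genes were called in the 3 comparisons. The members called against the control vault were then 0 of 3, and also 0 without moderation. The log2 differences of Hoxa11, Hoxa11os and Hoxa13 in both comparisons of the MCAGF8 vault kept their sign in all 14 settings. These settings could not reverse it, since every MCAGF8 vault library was above every control library for these genes. The cause of these changes was not tested. Depth is unknown, so a value of 0 has no lower limit of detection, and 7 of the 10 members were too low to be tested.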
